A study of Rattus norvegicus with 23 samples.

Results

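The genes described here build the extracellular matrix of rat oligodendroglial cells or bind it at the cell surface. They were chosen by name from the authors' deposited tables: collagen chains, laminin chains, integrin subunits and the glycoproteins Fn1, Thbs1, Thbs2, Thbs4, Tnc and Sparc. Of 14690 named genes, 66 met the rule, namely 29 collagens, 7 laminins, 20 integrin subunits, 4 genes whose names begin like an integrin subunit (Itgb1bp1, Itgb1bp2, Itgb3bp and Itgbl1) and the 6 glycoproteins. The rule itself uses names and no fold change, but naming depended on the authors' tables, which list only some of the genes counted. In the authors' deposited table for Nkx2.2 alone stand Itga11, Col24a1, Col25a1 and Itgb7, and in that for Zfp488 alone Col5a2 and Thbs4, all low in control cells, so a call of these genes in the comparison that brought them in is a description and supports nothing. All 66 were counted in differentiating CG4 cells, and 65 in every library, Col4a4 being the exception. Integrin and matrix genes that the tables do not name were not analysed here.

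CG4 is an established rat cell line of oligodendrocyte progenitors, and the study introduced transcription factors of this lineage into it. Differentiating CG4 cells carried pCAG-myc-Zfp488-IRES-EGFP (4 libraries), pCAG-T7-Nkx2.2-IRES-EGFP (4 libraries) or the control vector pCAG-IRES-EGFP (4 libraries), and had spent 3 days in SATO medium with T3/T4 and CNTF. Zfp488 is a zinc finger protein and Nkx2.2 a homeodomain protein. A constitutive promoter drove both factors. Proliferating CG4 cells (3 libraries) were wild-type, carried no vector and grew in bFGF and PDGF-AA. Wild-type primary oligodendroglia were shaken off mixed glial cultures of rat brain and sequenced after 3 days of differentiation (4 libraries) or while proliferating in bFGF and PDGF-AA (4 libraries). All values are from bulk RNA, in which fewer cells of one kind and less RNA per cell cannot be told apart.

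Collagens assemble from 3 chains into fibrils, sheets or beaded filaments, and laminins from an alpha, a beta and a gamma chain into the sheet of basement membranes. Integrins are pairs of an alpha and a beta subunit that span the membrane and bind these proteins. In the oligodendrocyte lineage, laminin receptors such as alpha6 beta1 are known for their part in survival and myelination, and tenascin C, fibronectin and thrombospondins are known as matrix cues for migration and maturation.

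Upstream sequence is shown for genes that were measured as partners. Col4a1 and Col4a2 encode the 2 chains of the common type IV collagen of basement membranes and lie head to head. RefSeq places them on chromosome 16 of the assembly GRCr8, Col4a1 on the plus strand and Col4a2 on the minus strand, with 76 bases between their starts (chr16:84885521-84885596, plus strand). Capitals mark GGGCGG on either strand, a sequence that Sp1-type factors are known to bind. The 76 bases before a start held it in 18.1% of 33469 RefSeq promoters.
Col4a1 and Col4a2: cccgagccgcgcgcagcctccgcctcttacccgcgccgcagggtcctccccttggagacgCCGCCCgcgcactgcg
Itga1, Itga10 and Itga11 encode the collagen-binding alpha subunits among the genes and were higher with Nkx2.2, Itga11 having been named through that comparison alone. Their 250 bases before the start are given on the strand of each gene, at chr2:48545284-48545533 (minus strand), chr2:186871461-186871710 (plus strand) and chr8:72041182-72041431 (plus strand) of GRCr8. Capitals mark AAGTG on either strand, the core that homeodomains of the NK2 family are known to bind. It occurred once before Itga1, once before Itga11 and nowhere in the Itga10 window, and 40.6% of the 33469 promoters held it in the same length, so its presence sets no gene apart.
Itga1: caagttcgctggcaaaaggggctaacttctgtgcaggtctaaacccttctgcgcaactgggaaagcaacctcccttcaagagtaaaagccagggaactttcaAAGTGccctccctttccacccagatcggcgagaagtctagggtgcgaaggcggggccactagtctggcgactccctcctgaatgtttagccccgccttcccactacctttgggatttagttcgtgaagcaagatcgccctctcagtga
Itga10: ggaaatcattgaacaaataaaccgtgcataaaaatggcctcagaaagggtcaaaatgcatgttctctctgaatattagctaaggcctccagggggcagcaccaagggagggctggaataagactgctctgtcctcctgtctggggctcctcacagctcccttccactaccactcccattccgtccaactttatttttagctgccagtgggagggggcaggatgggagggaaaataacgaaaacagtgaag
Itga11: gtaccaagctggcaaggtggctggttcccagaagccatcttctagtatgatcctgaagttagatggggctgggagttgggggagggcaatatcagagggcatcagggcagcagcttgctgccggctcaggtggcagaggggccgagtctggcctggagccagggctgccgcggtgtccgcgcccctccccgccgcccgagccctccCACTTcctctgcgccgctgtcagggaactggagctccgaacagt

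Libraries held 29906831 to 43307908 counted reads with Zfp488, 31112360 to 40854053 with Nkx2.2 and 39268564 to 49206479 in control cells. Proliferating CG4 libraries held 32454992 to 42318101, differentiating primary libraries 22624183 to 36301186 and proliferating primary libraries 20063345 to 33130502. Levels are counts per 1e6 reads (CPM) over the 15219 genes counted in every library, scaled by TMM and not corrected for transcript length, so levels of different genes are not compared. The introduced genes were higher where the labels say so: Zfp488 had 167 ± 29.0 CPM (SD, n = 4) in Zfp488 cells against 33.7 to 59.0 CPM in control cells, and Nkx2-2 had 1282 to 1990 CPM in Nkx2.2 cells against 211 to 299 CPM in control cells. Matrix and integrin genes took 1.83% to 2.11% of these reads with Zfp488, 2.18% to 2.98% with Nkx2.2 and 2.2% to 2.57% in control cells, but 0.438% to 0.664% in proliferating CG4 cells. They took 0.245% to 0.259% in primary cells that differentiated and 0.479% to 0.503% in those that proliferated. Differentiating CG4 cells with Nkx2.2 had the highest mean level of 20 of the 65 genes on this scale, and differentiating primary cells of 2. These counts were not made over all genes, and the 65 were named through comparisons of differentiating CG4 cells, so they are a description.

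With Zfp488, chains of types III and VI collagen rose with fibronectin and 3 integrin subunits, and the type IV chains Col4a1 and Col4a2 fell. Against control cells, 10 of the 66 genes rose and 3 fell (edgeR quasi-likelihood test, adjusted p under 0.05 over 14811 genes). That is 15.2% higher and 4.55% lower, where 5.89% of all genes tested were higher and 3.15% lower. The 10 include Col5a2, which was named through this comparison. The median log2 fold change was 0.15 over the 66 genes and -0.02 over all genes. The replicate numbers of differentiating CG4 cells mark libraries that deviate together. With the number as a block 18 genes rose and 8 fell, all 13 first calls among them, against 14.0% of all genes higher and 10.2% lower.

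Col3a1, the chain of type III collagen, changed most with Zfp488. It had 3.58, 6.39, 2.59 and 17.2 CPM in Zfp488 libraries against 0.201, 0.162, 0.0492 and 0.225 CPM in control libraries. Every Zfp488 library was above every control library, and library 4 was highest. The log2 fold change was 5.51 ± 0.77 (SE, adjusted p = 0.00274). Col5a2, a chain of type V collagen that sits within collagen fibrils, had 1.81, 1.54, 0.288 and 1.99 CPM with Zfp488 against 0.112, 0.189, 0.0492 and 0.113 CPM in control cells. These groups did not overlap, although Zfp488 library 3 came close to the controls; the values are a description, since this comparison brought the gene in. Of the other 8 fibril-forming collagens none passed the test; Col1a1 stood at 0.77 ± 0.38 on the log2 scale (adjusted p = 0.233, and 0.0388 with the block). Fibroblast, pericyte and smooth muscle markers summed to 14.9 to 22.8 CPM with Zfp488 against 9.59 to 14.01 CPM in control cells over the 4 of 10 listed that were measured. Of these 4 markers 1 was called higher and 0 lower. Prrx1 had a mean of 11.2 CPM with Zfp488 against 4.99 CPM in control cells. Tagln had 1.60 against 1.25 CPM, Anpep 0.331 against 0.350 CPM and Twist1 6.40 against 5.62 CPM. None of the 4 markers was at 0 in all libraries, and their part in these collagen values was not tested.

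Type VI collagen, which forms beaded microfibrils, rose in both measured chains. Col6a1 had 79.0, 99.98, 26.2 and 196 CPM with Zfp488 against 19.3, 26.7, 7.63 and 41.8 CPM in control cells. Here Zfp488 library 3 lay below control libraries 2 and 4, so the groups overlapped (log2 fold change 2.08 ± 0.57, adjusted p = 0.0404). Col6a2 had 26.4, 20.6, 5.15 and 25.3 CPM with Zfp488 against 2.37, 2.00, 1.26 and 2.39 CPM in control cells, without overlap (3.28 ± 0.44, adjusted p = 0.00227). Col12a1, a collagen that decorates fibrils, rose by 1.19 ± 0.31 (adjusted p = 0.0331), and the other 7 fibril-associated collagens did not pass the test. With the block Col14a1 at -0.76 ± 0.44 (adjusted p = 0.312, blocked 0.0334) and Col16a1 at -0.42 ± 0.14 (0.0795, blocked 0.0441) were called lower.

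The type IV chains Col4a1 and Col4a2 moved the other way, while Col4a4, another type IV chain among the genes, had no call. Col4a1 had 60.7, 71.0, 57.3 and 66.5 CPM with Zfp488 against 133.6, 153.8, 121.6 and 132.8 CPM in control cells. Col4a2 had 30.6, 31.2, 24.6 and 35.3 CPM with Zfp488 against 60.1, 62.5, 45.5 and 56.7 CPM in control cells. Neither gene's groups overlapped, and the 2 neighbours fell by similar amounts, by 1.07 ± 0.12 (adjusted p = 0.00102) and 0.88 ± 0.21 (adjusted p = 0.0256) on the log2 scale. Col28a1 fell by 2.32 ± 0.50 (adjusted p = 0.0158) to 1.84, 1.87, 0.416 and 1.59 CPM in Zfp488 libraries, against 9.57, 10.2, 2.34 and 6.74 CPM in control libraries.

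Among 7 laminins Lamb2, the beta2 chain, rose with Zfp488. It had 36.2, 42.0, 30.1 and 80.0 CPM in Zfp488 libraries against 11.7, 15.5, 17.8 and 24.0 CPM in control libraries. All Zfp488 libraries were higher (1.46 ± 0.29, adjusted p = 0.0118). The other laminins did not pass the test, and with the block Lamb1 at -0.28 ± 0.13 (adjusted p = 0.193, blocked 0.0163) and Lama4 at -0.21 ± 0.11 (0.261, blocked 0.0412) were called lower. Fn1, which encodes fibronectin, had 54.8, 31.6, 12.9 and 35.3 CPM with Zfp488 against 8.90, 9.20, 5.15 and 11.4 CPM in control cells, again without overlap (1.97 ± 0.48, adjusted p = 0.0256). The other 5 glycoproteins did not pass the test. Thbs4, named through this comparison, was called higher with the block.

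Integrin subunits rose with Zfp488 in 3 cases. Itga5, the fibronectin receptor alpha5, had 2.89, 3.80, 2.78 and 4.41 CPM with Zfp488 against 1.12, 1.03, 0.295 and 0.541 CPM in control cells (2.23 ± 0.36, adjusted p = 0.00472). Itgb8, a subunit that pairs with alphav and is known for activating TGF-beta, had 53.5, 48.5, 31.0 and 63.5 CPM with Zfp488 against 22.97, 19.1, 13.9 and 12.3 CPM in control cells (1.54 ± 0.24, adjusted p = 0.00415). In both genes every Zfp488 library was above every control library. Itgb3, another partner of alphav, had 44.5, 93.1, 89.9 and 136 CPM with Zfp488 against 45.0, 40.2, 24.7 and 28.3 CPM in control cells, where Zfp488 library 1 fell among the controls (1.40 ± 0.28, adjusted p = 0.0125). None of the laminin-binding alpha subunits passed the test, and all 3 did with the block: Itga3 at 0.53 ± 0.31 (adjusted p = 0.318, blocked 0.00697), Itga6 at 0.46 ± 0.17 (0.104, blocked 0.00526) and Itga7 at 0.83 ± 0.25 (0.0598, blocked 0.0181).

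Of the 13 calls with Zfp488, 8 held whichever single library was left out. Without Zfp488 library 4, which was highest for Col3a1 and Col6a1, 8 genes were called (7 higher, 1 lower) and Col28a1 was lost (adjusted p = 0.0525). Col12a1 (adjusted p up to 0.11) was lost without any 1 of the 4 control libraries, Zfp488 library 1, 2 or 4 or Nkx2.2 library 2. Col6a1 (up to 0.143) was lost without control library 1, 2 or 3, Zfp488 library 2 or 4 or Nkx2.2 library 2 or 4. Fn1 (up to 0.0723) was lost without control library 1, 2 or 3 or Zfp488 library 1, 2 or 4. Col4a2 (up to 0.0659) was lost without control library 1, 2 or 4 or Zfp488 library 2, 3 or 4.

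**Figure D1:**
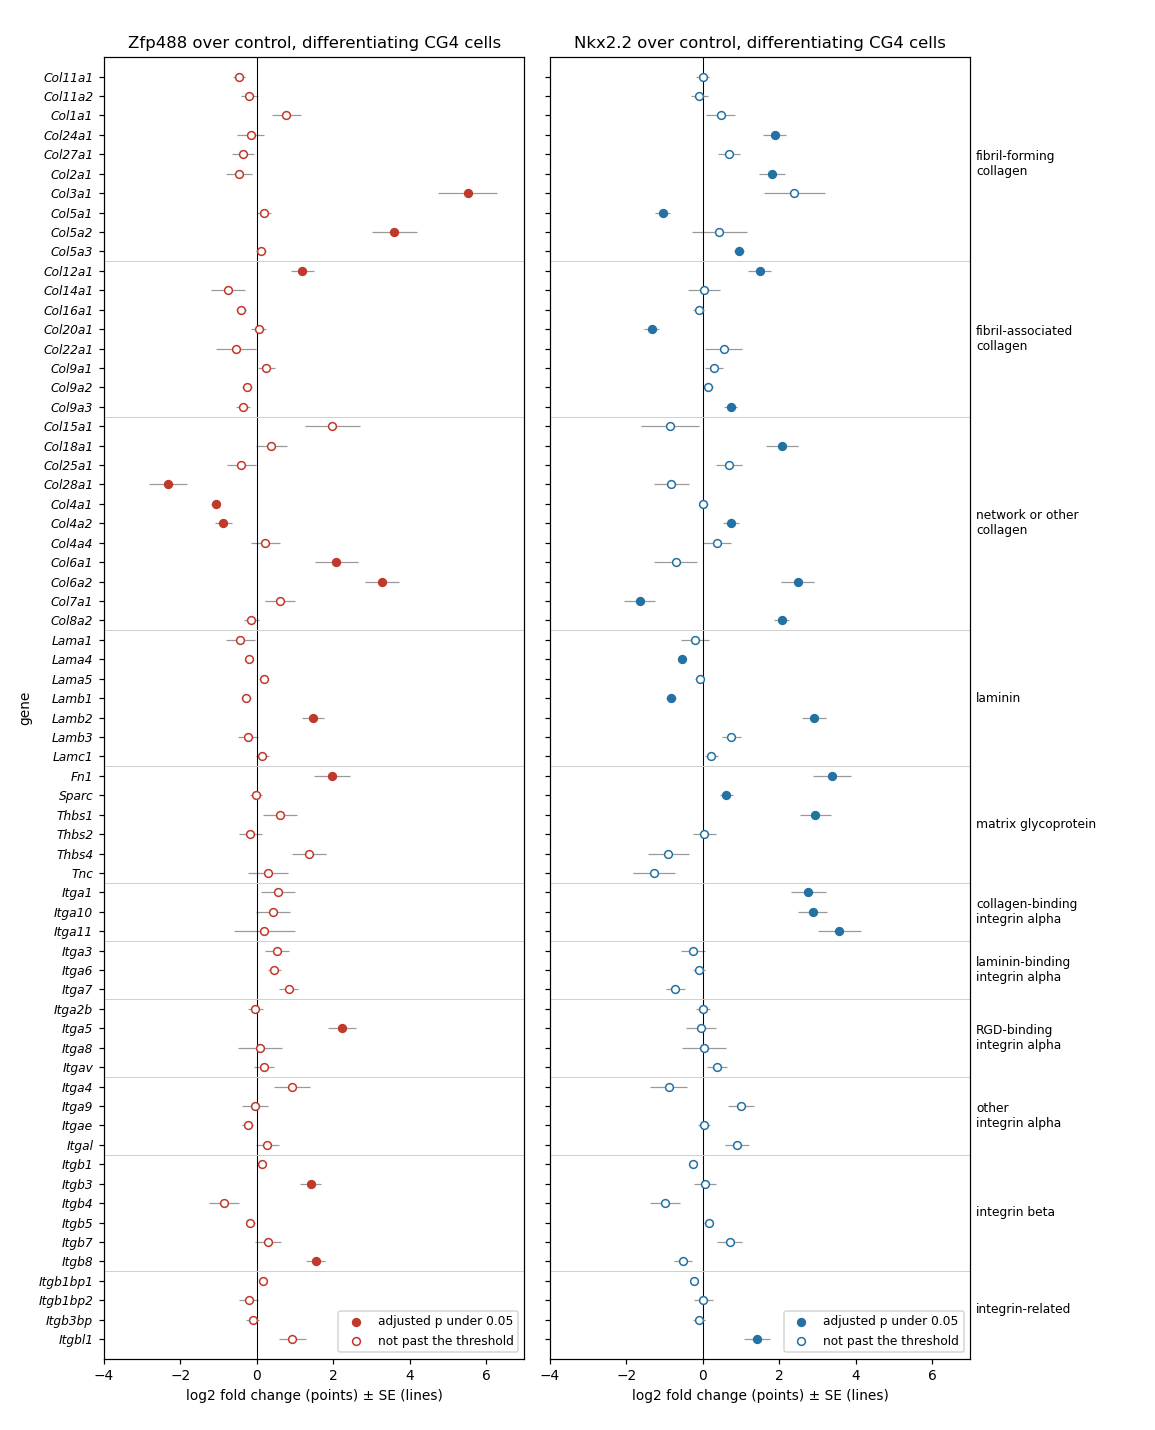
Log2 fold change (points) with its standard error (lines) of the 66 genes, grouped by role, for Zfp488 over control (left) and Nkx2.2 over control (right) in differentiating CG4 cells with 4 libraries per group. Filled points passed the test (13 with Zfp488, 22 with Nkx2.2): the collagen-binding integrin alpha subunits Itga1, Itga10 and Itga11 are filled on the right only, Itga11 having been named through that comparison, and Col4a1 and Col4a2 lie left of 0 with Zfp488 but not with Nkx2.2.

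With Nkx2.2, the collagen-binding integrin subunits alpha1 and alpha10, fibronectin and thrombospondin 1 rose, and the laminin beta chains moved in opposite directions. Of the 66 genes 17 rose and 5 fell against control cells, or 25.8% and 7.58%, where 6.10% of all genes were higher and 4.48% lower. The 17 include Itga11 and Col24a1, which were named through this comparison. The median log2 fold change was 0.10 over the 66 genes and -0.01 over all genes. With the replicate number as a block 23 rose and 12 fell, the 22 first calls included, against 12.6% of all genes higher and 13.5% lower. The 2 factors share their control libraries, and their direct comparison follows below.

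Of the collagen-binding alpha subunits, each a partner of beta1, Itga1 and Itga10 rose with Nkx2.2. Itga1 had 38.0, 21.0, 5.39 and 19.0 CPM in Nkx2.2 libraries against 4.36, 3.45, 2.12 and 2.43 CPM in control libraries (log2 fold change 2.77 ± 0.46, adjusted p = 0.00241). Itga10 had 2.09, 1.63, 1.32 and 2.55 CPM with Nkx2.2 against 0.402, 0.297, 0.197 and 0.135 CPM in control cells (2.88 ± 0.39, adjusted p = 0.000638). Each of these groups was fully separated, and Nkx2.2 library 3 was lowest in both genes. Itga11 was low throughout, at 1.24, 0.626, 0.305 and 0.785 CPM with Nkx2.2 against 0.0224, 0.0540, 0.0739 and 0.0902 CPM in control cells, values given as a description because this comparison brought the gene in. Their beta partner Itgb1 did not pass the test, at -0.24 ± 0.07 (adjusted p = 0.0519), and was called lower with the block (adjusted p = 0.0139). In RefSeq the span of Itga1 overlaps Pelo, and the use of strand in counting is not given in the sources used here. Pelo itself had 37.4 to 38.1 CPM with Nkx2.2 against 36.2 to 41.5 CPM in control cells.

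Fn1 had 119, 113, 27.4 and 101 CPM with Nkx2.2 against 8.90, 9.20, 5.15 and 11.4 CPM in control cells. Even the lowest Nkx2.2 library, library 3, exceeded all controls (3.39 ± 0.50, adjusted p = 0.0011). Thbs1, the secreted glycoprotein thrombospondin 1, had 2.85, 1.80, 1.19 and 1.37 CPM with Nkx2.2 against 0.291, 0.243, 0.222 and 0.180 CPM in control cells (2.95 ± 0.41, adjusted p = 0.000695). Sparc, a collagen-binding protein of the matrix, rose by 0.62 ± 0.17 (adjusted p = 0.0308), to 611, 911, 806 and 1179 CPM with Nkx2.2 against 617, 600.1, 482 and 598 CPM in control cells. Nkx2.2 library 1 lay within the controls. Tnc, tenascin C, stood at -1.28 ± 0.54 (adjusted p = 0.16, and 0.0435 with the block).

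The laminin chains moved against each other. Lamb2 had 127.5, 118, 112 and 158 CPM with Nkx2.2 against 11.7, 15.5, 17.8 and 24.0 CPM in control cells, a clear gap (2.92 ± 0.30, adjusted p = 0.000101). Lamb1, the alternative beta1 chain, had 119.5, 136, 148.5 and 126 CPM with Nkx2.2 against 204, 209.5, 294 and 248 CPM in control cells. It fell by 0.83 ± 0.13 (adjusted p = 0.00141), and no library of one group reached the other. Lama4, the alpha4 chain, fell by 0.54 ± 0.11 (adjusted p = 0.00772). Lama5 and Lamc1 did not pass the test, at -0.08 ± 0.12 (adjusted p = 0.71) and 0.23 ± 0.17 (adjusted p = 0.439).

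Collagens changed in both directions with Nkx2.2. Col2a1, the fibril collagen best known from cartilage, had 1184, 1258, 491.5 and 1406 CPM with Nkx2.2 against 307, 496, 209 and 229 CPM in control cells, so that 1 library of each group crossed (1.82 ± 0.35, adjusted p = 0.0052). Col8a2, a short network collagen, had 14.3, 12.1, 11.5 and 13.2 CPM with Nkx2.2 against 2.66, 3.10, 3.67 and 2.80 CPM in control cells (2.08 ± 0.20, adjusted p = 5.39e-05). Col18a1, the basement membrane collagen from which endostatin is cut, had 67.6, 39.3, 55.5 and 63.2 CPM with Nkx2.2 against 7.42, 11.4, 23.5 and 11.9 CPM in control cells (2.07 ± 0.41, adjusted p = 0.00709). The last 2 showed no overlap. Col6a2 (2.49 ± 0.43), Col12a1 (1.49 ± 0.31) and Col5a3 (0.95 ± 0.14) also rose, as did Col9a3 (0.73 ± 0.18), Itgbl1 (1.42 ± 0.34) and Col4a2 (0.74 ± 0.21). Of 4 measured fibroblast, pericyte and smooth muscle markers 2 were higher with Nkx2.2 and 0 lower. The 4 markers summed to 12.1 to 15.6 CPM with Nkx2.2 against 9.59 to 14.01 CPM in control cells, and their part in the values of the matrix genes was not tested.

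Col20a1, Col5a1 and Col7a1 were the collagens that fell. Col20a1 had 201, 215, 345 and 258 CPM with Nkx2.2 against 663, 715, 695 and 514 CPM in control cells, all lower (-1.33 ± 0.19, adjusted p = 0.00102). Col5a1 had 83.5, 92.0, 112 and 102 CPM with Nkx2.2 against 208, 214, 193 and 198 CPM in control cells, all lower (-1.05 ± 0.19, adjusted p = 0.00327). Col7a1, which anchors epithelial basement membranes, fell by 1.65 ± 0.40 (adjusted p = 0.021). The span of Col20a1 overlaps Chrna4 in RefSeq, and Chrna4 had 5.23 to 7.88 CPM with Nkx2.2 against 12.2 to 15.7 CPM in control cells. Its part in the Col20a1 values was not tested.

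Of the 22 calls with Nkx2.2, 17 held without any 1 library. Sparc (adjusted p up to 0.0884) was lost without any 1 control library or Nkx2.2 library 2 or 4. Col4a2 (up to 0.118) was lost without any 1 control library, Zfp488 library 1 or 2 or Nkx2.2 library 1, 2 or 4. Col7a1 (up to 0.0594) was lost without control library 1 or 2 or Nkx2.2 library 1, and Col9a3 (up to 0.0804) without control library 1, 2 or 4 or Nkx2.2 library 4. Itgbl1 (up to 0.0691) was lost without control library 2 or 3 or Nkx2.2 library 2 or 4.

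**Figure D2:**
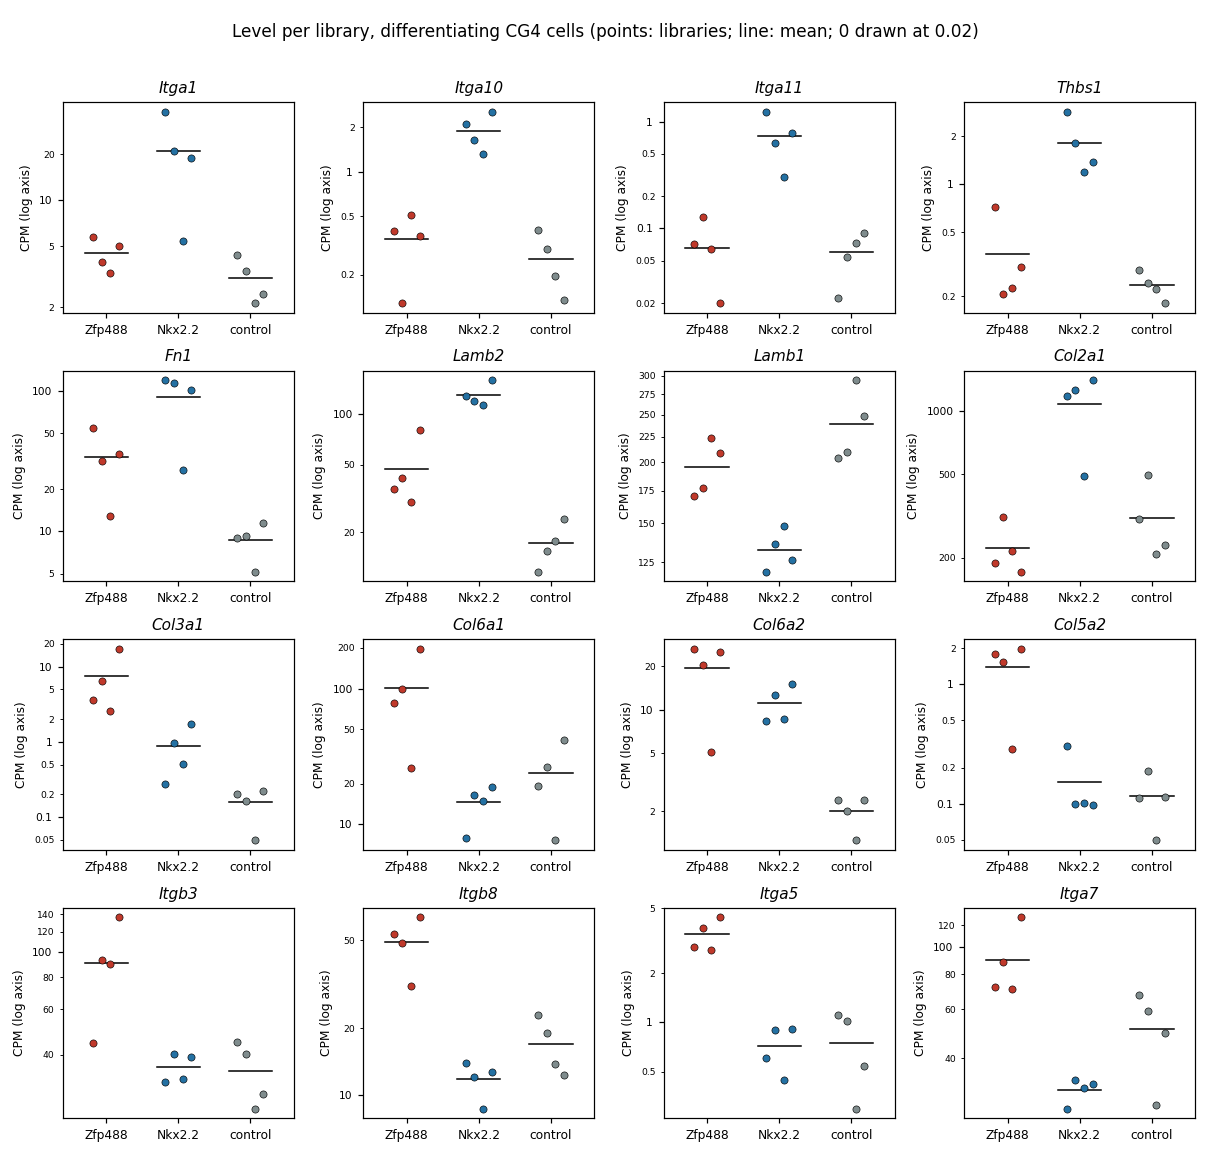
Level in CPM (log axis, one scale per gene) of 16 genes in each library of differentiating CG4 cells with Zfp488, Nkx2.2 or the control vector (4 points per group, line at the mean, 0 drawn at 0.02 CPM). The top row and Fn1, Lamb2 and Col2a1 are highest with Nkx2.2, Lamb1 is lowest with Nkx2.2, and Col3a1, Col6a1, Col5a2 and the bottom row are highest with Zfp488.

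Set directly against each other, the factors left CG4 cells with different integrins and collagens. Zfp488 cells were higher than Nkx2.2 cells in 18 of the 66 genes and lower in 23, or 27.3% and 34.8%, where 13.3% of all genes were higher and 12% lower. The 18 include Col5a2 and Thbs4, and the 23 include Itga11, Col24a1 and Col25a1. Each of these was named through a single factor's comparison, so its call here is a description. The median log2 difference was -0.22 over the 66 genes and -0.01 over all genes. The balance rested on single libraries: 21 were higher and 18 lower without Zfp488 library 3, and 16 and 15 without Zfp488 library 2 or Nkx2.2 library 4. The numbers were equal without Nkx2.2 library 1 (17 each), Nkx2.2 library 2 (15 each) or control library 2 (17 each), and in a fit of the 8 libraries compared (18 each). Itga1 was lower with Zfp488 than with Nkx2.2 by -2.21 ± 0.45 (adjusted p = 0.00425) and Itga10 by -2.45 ± 0.39 (adjusted p = 0.000924) on the log2 scale.

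Several other integrin subunits were higher with Zfp488. Itga7 had 71.8, 88.5, 70.9 and 128 CPM with Zfp488 against 26.3, 33.4, 31.2 and 32.4 CPM with Nkx2.2, well apart (1.54 ± 0.26, adjusted p = 0.00128). Itgb8 differed by 2.05 ± 0.25 (adjusted p = 0.000162), Itgb3 by 1.34 ± 0.28 (adjusted p = 0.00491) and Itga5 by 2.27 ± 0.37 (adjusted p = 0.00111), all higher with Zfp488. Itga4, which pairs with beta1 to bind fibronectin and VCAM1, had 26.4, 25.1, 11.1 and 19.9 CPM with Zfp488 against 8.29, 7.56, 1.70 and 5.82 CPM with Nkx2.2 (1.81 ± 0.48, adjusted p = 0.0167). Itgb1 was 0.37 ± 0.07 higher with Zfp488 (adjusted p = 0.00349). Itga3 at 0.77 ± 0.31 (adjusted p = 0.0847, blocked 0.000553) and Itgav at -0.18 ± 0.27 (adjusted p = 0.658) did not pass the test, and Itgb5 was lower with Zfp488 (-0.33 ± 0.11, adjusted p = 0.0459).

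In the matrix, Col3a1 (3.11 ± 0.65, adjusted p = 0.00457), Col6a1 (2.79 ± 0.59, adjusted p = 0.00501) and Col7a1 (2.26 ± 0.41, adjusted p = 0.00203) were higher with Zfp488 than with Nkx2.2. Lower with Zfp488 were Col2a1 (-2.29 ± 0.35, adjusted p = 0.000748), Col8a2 (-2.23 ± 0.20, adjusted p = 2.31e-05), Col4a2 (-1.62 ± 0.22, adjusted p = 0.000298) and Col4a1 (-1.09 ± 0.12, adjusted p = 8.59e-05). Lamb2 and Fn1 rose with both factors and were nevertheless lower with Zfp488 than with Nkx2.2, by -1.46 ± 0.29 (adjusted p = 0.00335) and -1.43 ± 0.46 (adjusted p = 0.0393). Thbs4, like Col5a2 named through its level with Zfp488, is described only, at 0.506, 0.769, 0.320 and 0.367 CPM with Zfp488 against 0.101, 0.100, 0.170 and 0.0327 CPM with Nkx2.2. No matrix or integrin gene fell with both factors, 4 rose with both (Fn1, Lamb2, Col6a2 and Col12a1), and 22 had no call in any of these 3 comparisons. The shares of all genes with these patterns were not computed, and both factors were set against the same control libraries, so these counts are a description. Of the 41 calls, 30 held without any 1 library. The 11 others, Col9a2, Col11a1, Col15a1, Col25a1, Col27a1, Col28a1, Lama4, Fn1, Itga6, Itga9 and Itgb5, were each lost in 3 to 10 of 12 fits that left out a library, with adjusted p up to 0.134.

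Col11a2 and Itga8 had no call among the 3 groups of differentiating CG4 cells, while Col11a1 was called lower with Zfp488 than with Nkx2.2. Col11a1 and Col11a2, chains of type XI collagen that nucleates fibrils, together took 55.0% to 61.8% of the reads of all the matrix and integrin genes with Zfp488, 52.5% to 60% with Nkx2.2 and 55.7% to 66.6% in control cells. Col11a2, with no call among these groups, had 4670, 5092, 8279 and 6808 CPM with Zfp488, 5507, 6273, 7048 and 7921 CPM with Nkx2.2, and 5414, 5758, 9507 and 8008 CPM in control cells. The 3 groups overlapped. Itga8, a receptor for nephronectin, had 53.4, 37.3, 8.25 and 26.3 CPM with Zfp488, 51.7, 36.0, 10.2 and 21.8 CPM with Nkx2.2, and 48.7, 31.3, 11.2 and 27.1 CPM in control cells. Library 1 was highest and library 3 lowest in all 3 groups, which overlapped. Library 3 was lowest in all 3 groups for 15 of the 65 genes, and library 4 for 0, a count that was not made over all genes.

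Proportions between chains were compared for chains that assemble together and for the alternative laminin beta chains. No difference passed the test after adjustment, but with so few libraries even full separation in a few comparisons could not pass it. The test therefore does not decide whether proportions changed. The ratio of the CPM of 2 chains was taken within each library after adding 0.05 CPM to both, for 4 pairs chosen after their values were seen. Lamb2 over Lamb1 was 0.212, 0.237, 0.135 and 0.384 with Zfp488, 1.07, 0.867, 0.757 and 1.25 with Nkx2.2, and 0.0575, 0.0742, 0.0607 and 0.0970 in control cells, so that the 3 groups were fully separated. Col4a2 over Col4a1 was 0.505, 0.440, 0.429 and 0.532 with Zfp488, 0.774, 0.681, 0.488 and 0.758 with Nkx2.2, and 0.450, 0.407, 0.374 and 0.428 in control cells. The Nkx2.2 ratios were all above the control ratios, while those with Zfp488 overlapped them. Although the 2 genes share the 76 bases printed above, Col4a1 stood at 0.01 ± 0.12 with Nkx2.2 (adjusted p = 0.96) where Col4a2 rose.

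Col6a2 over Col6a1 was 0.335, 0.206, 0.198 and 0.129 with Zfp488, 1.05, 0.768, 0.585 and 0.797 with Nkx2.2, and 0.125, 0.0766, 0.170 and 0.0583 in control cells. Nkx2.2 libraries were above both other groups. In primary cells it was 3.33, 5.38, 4.24 and 3.26 when differentiating against 1.23, 1.77, 1.48 and 1.45 when proliferating, without overlap. Col11a2 over Col11a1 was 8.53, 7.89, 7.43 and 6.85 in differentiating against 0.279, 0.251, 0.288 and 0.284 in proliferating primary cells, the widest gap among these 4 pairs. Over the 20 comparisons of 4 pairs, the two-sided exact permutation test gave its smallest possible p, 0.0286 for 4 libraries against 4, in the 8 comparisons of such groups that did not overlap. After adjustment over the 20 comparisons this is 0.0714, past no threshold.

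**Figure D3:**
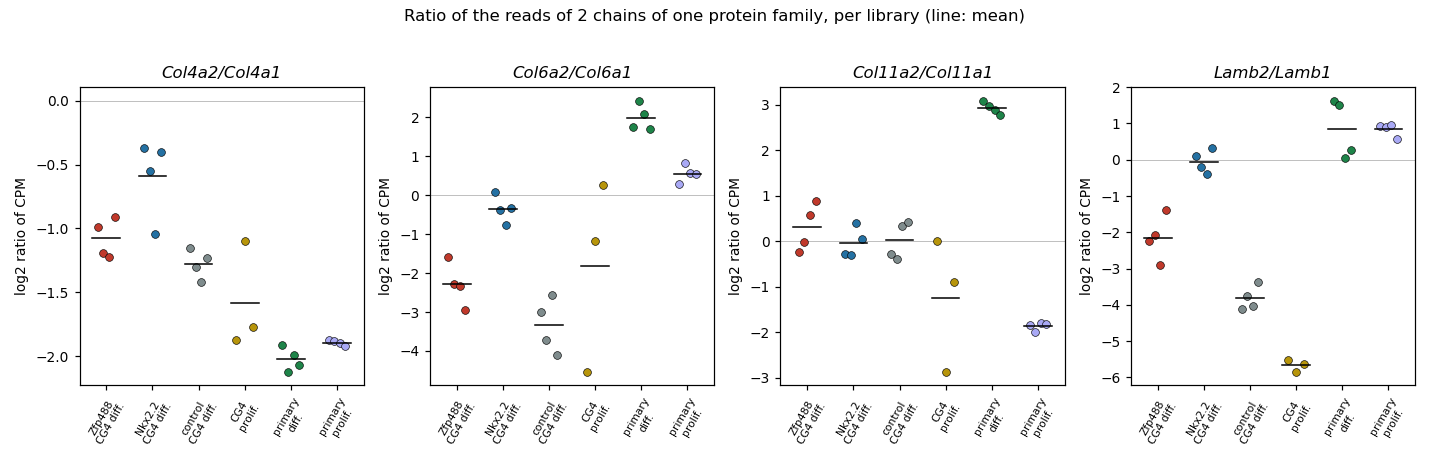
Log2 ratio of the CPM of 2 chains in each library (points, line at the mean) for the 6 groups. Lamb2/Lamb1 is highest among CG4 groups with Nkx2.2, and Col11a2/Col11a1 separates differentiating from proliferating primary cells by 4.80 on the log2 scale.

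In primary oligodendroglia, differentiation went with higher fibril-associated collagens and lower Col4a1, Col4a2, type VI collagens, tenascin C and fibronectin. Of the 66 genes 56 passed the filter on low counts, 22 rose and 27 fell, or 39.3% and 48.2%, where 41.5% of all 12310 genes were higher and 43.3% lower. The shares are thus near those of all genes. The counts by family that follow cover few genes each and are a description. Of 8 fibril-associated collagens 7 rose and none fell. Of 7 network and other collagens tested none rose and 6 fell (Col4a1, Col4a2, Col6a1, Col6a2, Col7a1 and Col18a1), while the network collagen Col8a2 had no call. All 3 laminin-binding alpha subunits fell. The medians were -0.20 over these genes and -0.02 over all genes.

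The type XI and IX collagens, which form thin fibrils together, rose. Col11a2 had 723, 677, 738 and 646 CPM in differentiating against 16.2, 14.8, 16 and 16.1 CPM in proliferating primary cells (log2 fold change 5.51 ± 0.06, adjusted p = 1.61e-13). Col9a3 had 222, 218, 199 and 184 CPM in differentiating against 8.57, 8.44, 8.44 and 8.61 CPM in proliferating cells (4.64 ± 0.07, adjusted p = 5.02e-13). Both gaps were far wider than the spread within groups. Col2a1 rose by 3.16 ± 0.51 at low levels, with 0.616 to 1.93 CPM in differentiating and 0.0805 to 0.220 CPM in proliferating cells. Sparc had 276, 255, 139 and 136 CPM in differentiating against 63.1, 61.8, 67.8 and 66.6 CPM in proliferating cells (1.68 ± 0.21, adjusted p = 1.9e-05), the differentiating libraries falling into a higher and a lower pair.

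Tenascin C fell most among the glycoproteins. Tnc had 61.4, 58.1, 80.8 and 73.3 CPM in differentiating against 1746, 1675, 1729 and 1829 CPM in proliferating primary cells, a fall by 4.63 ± 0.11 (adjusted p = 1.36e-11). Fn1 had 4.15, 4.27, 9.62 and 6.66 CPM in differentiating against 69.2, 65.1, 66.9 and 75.3 CPM in proliferating cells (-3.48 ± 0.20, adjusted p = 1.88e-08). No differentiating library came near a proliferating one in either gene. Col4a1 and Col4a2 fell by 2.69 ± 0.05 (adjusted p = 1.16e-12) and 2.81 ± 0.06 (adjusted p = 4.25e-12), and Col6a1 (-4.16 ± 0.22), Col3a1 (-3.64 ± 0.19), Col18a1 (-3.30 ± 0.17) and Col1a1 (-2.73 ± 0.15) fell with them. Thbs2 fell by 0.55 ± 0.21 (adjusted p = 0.0273), a call lost without proliferating library 1 or 4 (adjusted p up to 0.0824).

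All laminin-binding alpha subunits fell, while beta subunits went both ways. Itga3, a laminin receptor, had 1.80, 1.62, 1.98 and 2.36 CPM in differentiating against 50.9, 46.0, 54.5 and 50.1 CPM in proliferating primary cells (-4.68 ± 0.10, adjusted p = 8.01e-12). Itga5 and Itga8 fell by 3.39 ± 0.10 and 3.32 ± 0.06, Itga7 by 2.11 ± 0.09 and Itga6, the best known laminin receptor of oligodendrocytes, by 1.10 ± 0.05. The subunits that rose were Itgb3 (1.49 ± 0.20), Itgb8 (1.13 ± 0.08), Itga4 (0.78 ± 0.12), Itgae (0.36 ± 0.08) and Itgb1 (0.29 ± 0.04). Itgb4 fell by 1.11 ± 0.21 and Itgb5 by 1.03 ± 0.06. Among laminin chains Lamb2 (1.01 ± 0.13), Lamb1 (1.00 ± 0.23), Lamc1 (0.93 ± 0.04) and Lama5 (0.44 ± 0.08) rose, and Lamb3 (-3.89 ± 0.28), Lama1 (-1.49 ± 0.20) and Lama4 (-0.23 ± 0.07) fell.

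Itgal, the alphaL subunit of leukocytes, had 24.6, 21.7, 29.5 and 29.5 CPM in differentiating against 135, 133, 136 and 142 CPM in proliferating primary cells (-2.34 ± 0.09, adjusted p = 7.78e-10). The microglia and macrophage markers Csf1r, Cd68 and P2ry12, 3 of 10 listed that were measured, all fell and summed to 18.8 to 24.9 CPM in differentiating against 450.7 to 469 CPM in proliferating cells. Markers of other cell types moved as well. Of 5 astrocyte markers 4 rose, and the 5 summed to 1049 to 2142 CPM in differentiating against 169.9 to 181.6 CPM in proliferating cells. Of 6 Schwann cell and neural crest markers 5 rose and 1 fell, and the 6 summed to 393.8 to 589.2 CPM in differentiating against 198.5 to 207.2 CPM in proliferating cells. Of 4 fibroblast, pericyte and smooth muscle markers 1 rose and 3 fell. In CG4 groups the microglia and macrophage markers summed to at most 14.2 CPM and Itgal to at most 1.83 CPM. No measured marker of these lists was at 0 in all libraries of either primary group. The part of such cells in the changes of Itgal, Fn1, Tnc and the other genes was not tested.

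**Figure D4:**
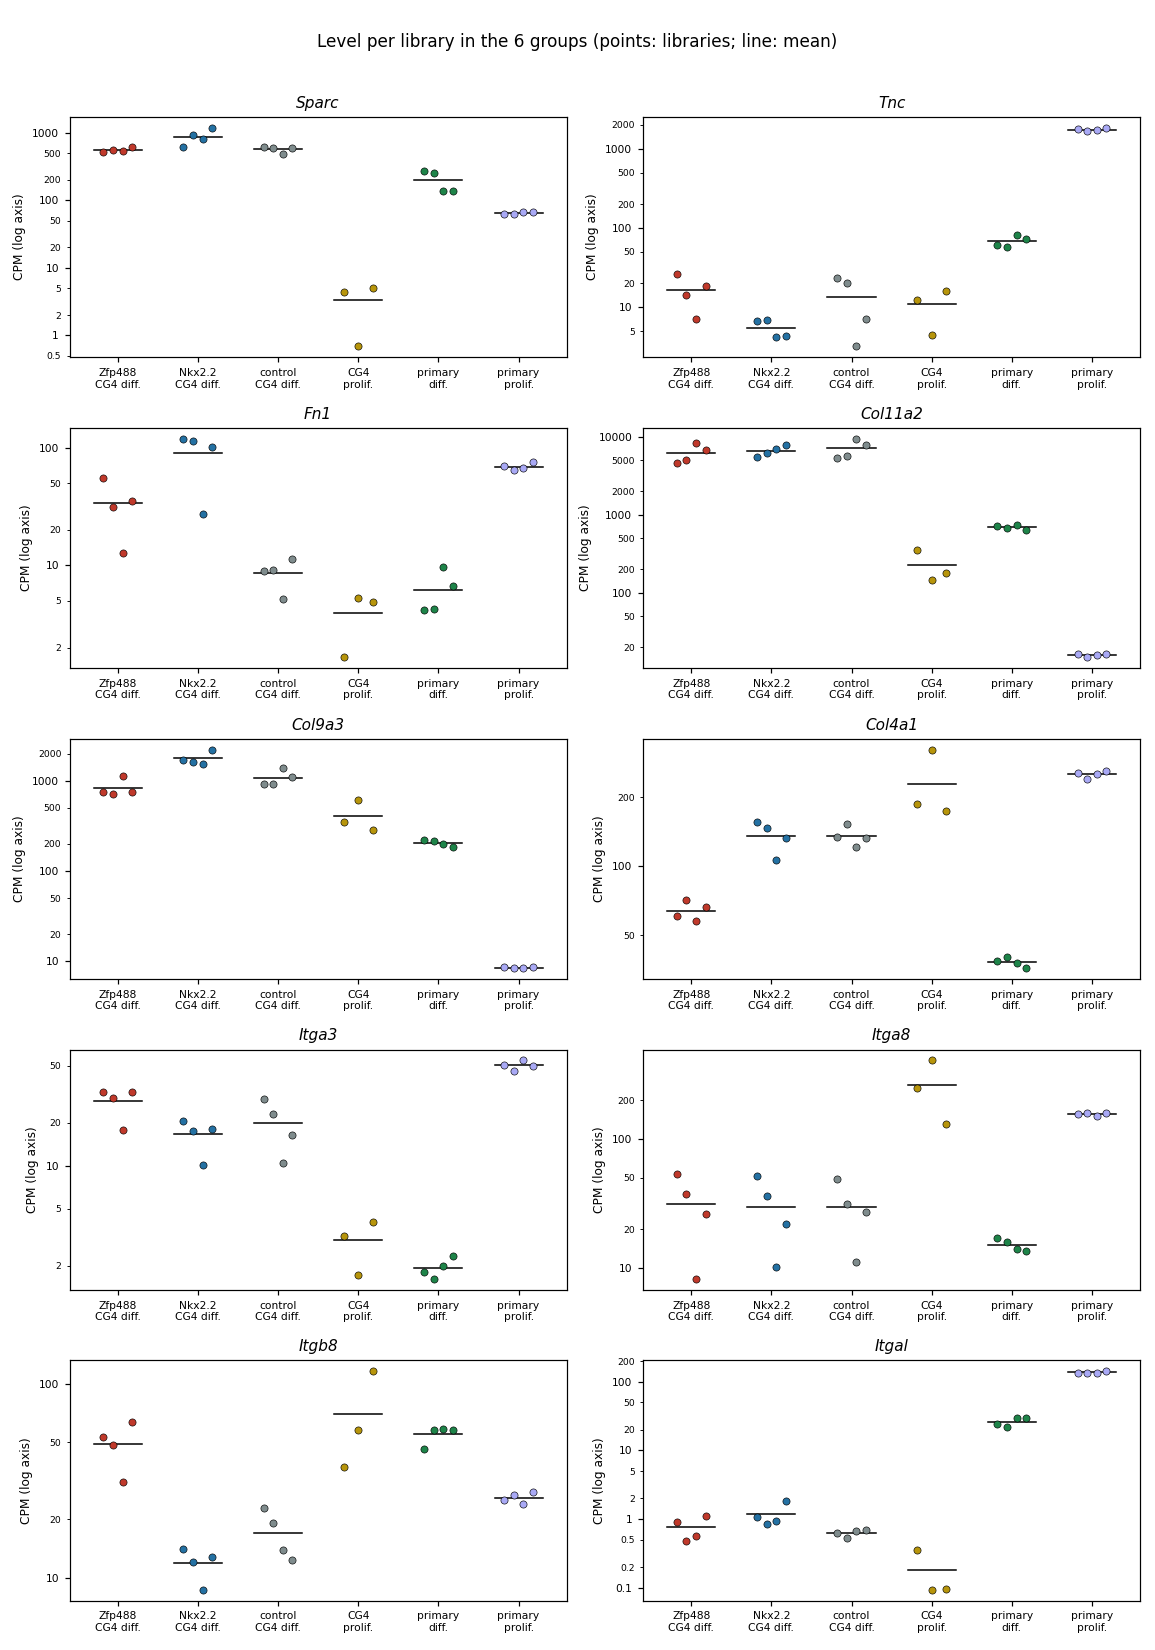
Level in CPM (log axis, one scale per gene) of 10 genes in each library of the 6 groups, with a line at the mean. Tnc and Itgal are highest in proliferating primary cells, Col11a2 is lowest there, and Sparc is lowest in proliferating CG4 cells at 0.688 to 4.999 CPM.

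CG4 cells gained matrix transcripts between the proliferating and the differentiating state. Of 61 genes tested, 32 were higher in differentiating control CG4 cells than in proliferating CG4 cells and 10 lower, or 52.5% and 16.4%, where 32.5% of 12486 genes were higher and 33.2% lower. The medians were 1.41 over these genes and 0.01 over all genes. Vector, read length (paired 150 against 100 bases) and sequencing run differed together with the state, and cannot be told apart from it. The 4 measured fibroblast, pericyte and smooth muscle markers summed to 9.59 to 14.01 CPM in control against 7.98 to 84.03 CPM in proliferating CG4 cells. Of these 4 markers 1 was higher in control cells and 1 lower. Prrx1 alone had 0.720 to 78.4 CPM in proliferating cells against 4.00 to 6.57 CPM in control cells. Of 5 astrocyte markers 3 were higher and 0 lower. The 5 summed to 288 to 2178 CPM in control against 3.22 to 38.0 CPM in proliferating cells. Most of the control sum was Gfap, with a mean of 1303 CPM in control against 0.177 CPM in proliferating cells. Slc1a3 had means of 40.1 and 24.6 CPM, Gja1 2.29 and 0.184 CPM, Slc1a2 1.03 and 0.728 CPM, and Aldh1l1 0.408 and 0 CPM. Of 6 Schwann cell and neural crest markers 4 were higher and 1 lower. The 6 summed to 1298 to 1854 CPM in control against 629.8 to 669.5 CPM in proliferating cells. The part of such cells in the values of the matrix genes was not tested.

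Sparc had 617, 600.1, 482 and 598 CPM in differentiating control cells against 4.38, 0.688 and 4.999 CPM in proliferating CG4 cells, the largest fold change of the 61 (7.44 ± 0.65, adjusted p = 3.15e-05). Col11a2 had 5414, 5758, 9507 and 8008 CPM in differentiating against 356, 146 and 181 CPM in proliferating cells (5.01 ± 0.42, adjusted p = 2.33e-05). Itgb4, the partner of alpha6 in hemidesmosomes, had 38.2, 45.1, 9.60 and 28.0 CPM in differentiating against 0.698, 0 and 0.243 CPM in proliferating cells (6.55 ± 0.93, adjusted p = 0.000414). None of these groups overlapped. Col2a1 (5.54 ± 0.60), Col7a1 (5.53 ± 0.62), Col20a1 (5.16 ± 0.39), Col6a1 (4.81 ± 0.91), Col1a1 (4.74 ± 0.85) and Lamb2 (4.36 ± 0.51) followed. Col1a1 overlaps Sgca in RefSeq, and Sgca also rose, by 7.42 ± 0.58.

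Among the 10 genes that were lower were 3 integrin subunits, alpha8, alphav and beta8. Itga8 had 48.7, 31.3, 11.2 and 27.1 CPM in differentiating control cells against 249, 407 and 130.0 CPM in proliferating CG4 cells (-3.12 ± 0.52, adjusted p = 0.000977). Itgav had 152, 134, 90.1 and 98.7 CPM in differentiating against 646, 620.3 and 490.2 CPM in proliferating cells (-2.27 ± 0.21, adjusted p = 4.4e-05). The groups were apart in both genes. Itgb8 (-2.01 ± 0.39), Col5a3 (-2.002 ± 0.29), Lama1 (-2.56 ± 0.58), Lamc1 (-0.77 ± 0.20), Col4a1 (-0.73 ± 0.22), Lama4 (-0.51 ± 0.17), Col25a1 (-2.30 ± 0.40) and Itgb3bp (-1.22 ± 0.30) were also lower. Lost without a single library were Col18a1 (control 2, 3 or 4, or proliferating 2 or 3, adjusted p up to 0.115), Fn1 (control 1, 2 or 4, or proliferating 1 or 3, up to 0.116), Itga5 (control 1, 2 or 4, or proliferating 1 or 2, up to 0.0906), Lama4 (control 2, 3 or 4, or proliferating 1 or 2, up to 0.0755) and Itgal (proliferating 3, 0.0511). The other 37 calls held.

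The 2 cell types shared part of this response and differed in much of it. The interaction term, the CG4 response minus the primary response, was called higher in 36 and lower in 10 of 62 genes tested, or 58.1% and 16.1%, where 33.8% of 13207 genes were higher and 35.4% lower. The medians were 2.201 over these genes and -0.03 over all genes. In both cell types Col11a2, Col2a1, Col14a1 and Itgb3 rose and Itga8, Lama1, Lama4 and Itgb3bp fell without a called difference between the responses. For Col11a2 that difference was -0.46 ± 0.34 (adjusted p = 0.243) and for Itga8 0.26 ± 0.52 (adjusted p = 0.68).

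Over all genes, 32.5% were higher in CG4 differentiation and 43.3% lower in primary differentiation. The share of all genes with both calls was not computed, so the count that follows is a description. The 12 genes that rose in CG4 cells and fell in primary cells, with the interaction called, were Fn1, Col1a1, Col6a1, Col7a1, Col18a1, Itga3, Itga5, Itga7, Itga9, Itgal, Itgb4 and Itgb5. The CG4 calls of Fn1, Col18a1, Itga5 and Itgal were each lost without some single library, as given above. Among the 12 genes the responses differed by 9.01 ± 0.97 for Col6a1 (adjusted p = 1.09e-06), 7.62 ± 0.64 for Col7a1 (adjusted p = 8.49e-08) and 7.45 ± 0.47 for Itga3 (adjusted p = 4.15e-09). Itgb8 and Lamc1 fell in CG4 cells and rose in primary cells, with differences of -3.09 ± 0.40 (adjusted p = 7.67e-06) and -1.66 ± 0.20 (adjusted p = 3.54e-06). Col9a3 rose in both, by 1.41 ± 0.29 in CG4 cells and 4.64 ± 0.07 in primary cells (-3.18 ± 0.28, adjusted p = 1.61e-07), and Sparc rose in both but by more in CG4 cells (5.79 ± 0.57, adjusted p = 4.28e-07). Of the 46 calls, 4 were lost without a single library: Itga1 without proliferating CG4 library 1 (adjusted p = 0.076), and Col22a1, Thbs4 and Itgb1bp2 in 6 or 7 of 15 fits (adjusted p up to 0.151).

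**Figure D5:**
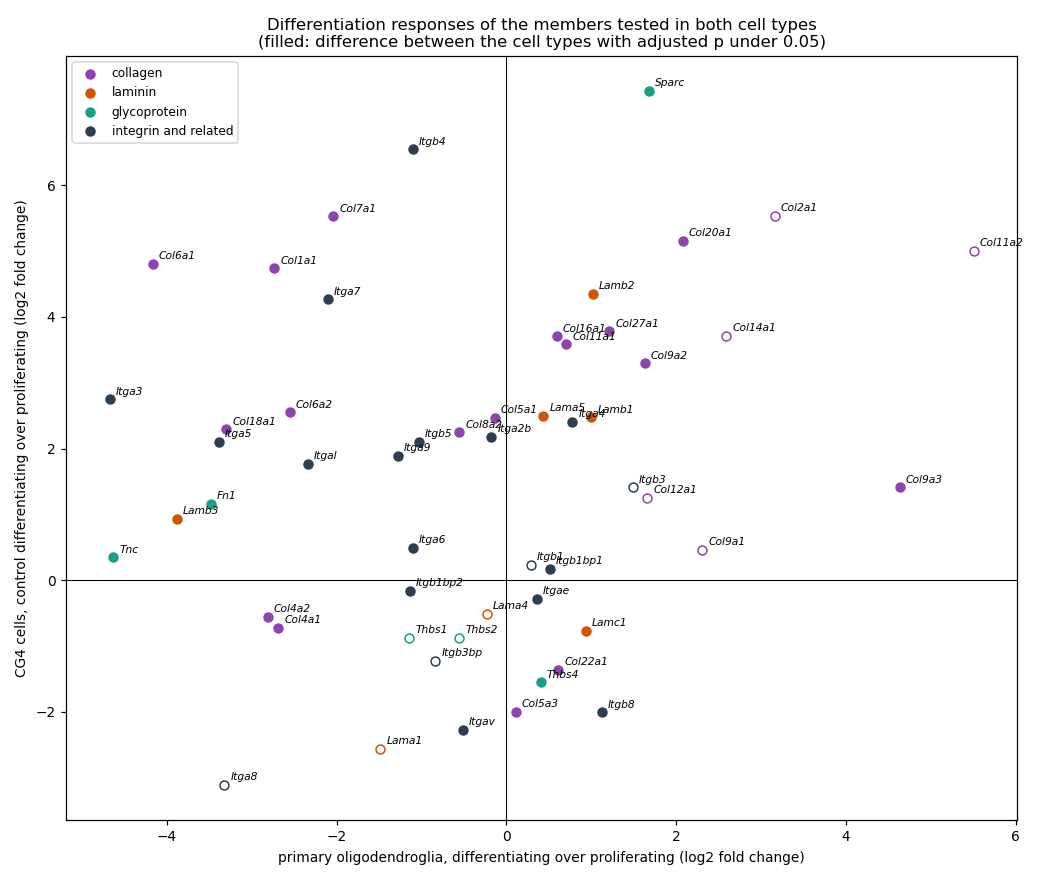
Log2 fold change on differentiation in primary oligodendroglia (horizontal axis) and in CG4 cells (vertical axis, control vector over proliferating wild-type) for the 54 genes tested in both, coloured by family. Filled points have a called difference between the responses: Col6a1, Itga3 and Fn1 lie at the upper left, Sparc and Lamb2 at the upper right and Itgb8 and Lamc1 at the lower right.

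Genes that process or anchor this matrix were followed by lists chosen with earlier results of these data known. Their counts stand beside the shares of all genes called, which with Zfp488 were 5.89% higher and 3.15% lower (14.0% and 10.2% with the block) and with Nkx2.2 6.10% and 4.48% (12.6% and 13.5% with the block). In differentiation the shares were 41.5% and 43.3% in primary cells and 32.5% and 33.2% in CG4 cells. Of 22 collagen folding and crosslinking genes tested, 1 rose and 0 fell with Zfp488 (7 and 1 with the replicate block), and 4 rose and 3 fell with Nkx2.2 (7 and 5 with the block). Bmp1, which cleaves procollagen, rose with Zfp488 (0.82 ± 0.19, adjusted p = 0.0204). Loxl3, a lysyl oxidase that crosslinks collagen, rose with Nkx2.2 (1.17 ± 0.17, adjusted p = 0.00112) and Adamts2, a procollagen protease, fell (-1.31 ± 0.23, adjusted p = 0.00364). Of the 20 tested in CG4 differentiation, 17 were higher and 0 lower, with a median of 2.05 against 0.01 over all genes, and in primary differentiation 10 of 20 rose and 7 fell.

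Of 14 basement membrane and dystroglycan genes, 1 rose and 1 fell with Zfp488 (4 and 2 with the block) and 2 rose and 2 fell with Nkx2.2 (3 and 4 with the block). Nid1, the laminin and collagen IV linker nidogen 1, rose with Zfp488 (1.47 ± 0.30, adjusted p = 0.0128). Its levels were low, with means of 2.60 CPM with Zfp488 against 0.941 CPM in control cells. Nid2 was higher with Zfp488 than with Nkx2.2 (1.70 ± 0.28, adjusted p = 0.00111). In primary cells 9 of 12 rose and 2 fell, Nid2 by 3.81 ± 0.09 and Dag1, the laminin receptor dystroglycan, by 1.22 ± 0.06. In CG4 differentiation 7 of 13 rose and 1 fell.

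Of 21 adhesion complex genes, which link integrins to actin, 3 rose and 1 fell with Zfp488 (9 and 2 with the block) and 2 rose and 3 fell with Nkx2.2 (4 and 4 with the block). The kinase Src fell with Zfp488 (-0.31 ± 0.07, adjusted p = 0.0233) and rose with Nkx2.2 (0.83 ± 0.07, adjusted p = 4.12e-05), and the direct difference was -1.14 ± 0.07 (adjusted p = 2.87e-06). In primary cells 13 rose and 7 fell, and in CG4 differentiation 10 rose and 6 fell. Of 11 matrix protease and inhibitor genes 0 rose and 2 fell with Zfp488 (3 and 5 with the block), and 3 rose and 2 fell with Nkx2.2. Adam17, a membrane sheddase, fell with both, by 0.75 ± 0.08 (adjusted p = 0.00102) with Zfp488 and 0.61 ± 0.08 (adjusted p = 0.000385) with Nkx2.2. In primary cells 4 of 10 rose and 6 fell, Timp1 by 4.39 ± 0.06, and in CG4 differentiation 3 of 10 rose and 4 fell.

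The authors' deposited table for Zfp488 holds 62 of the 66 genes, 16 of them with an adjusted p under 0.05 (11 higher, 5 lower), including all 13 called here. The authors' deposited table for Nkx2.2 holds 64, with 25 under 0.05 (18 higher, 7 lower), including all 22 called here. For Col3a1 the authors' deposited table for Nkx2.2 gives a log2 fold change of 2.45 and an adjusted p of 0.00339. The edgeR test gave 2.40 ± 0.80 for Col3a1 (adjusted p = 0.0764, and 0.00139 with the block), with 0.277, 0.952, 0.509 and 1.73 CPM in Nkx2.2 libraries against 0.201, 0.162, 0.0492 and 0.225 CPM in control libraries. All Nkx2.2 libraries were higher, and the smallest gap between the groups was narrow.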

How the data were processed

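RNA was sequenced in 23 libraries of 6 groups. Each deposited library file is a table of raw counts, which the authors made with Trimmomatic 0.36, STAR 2.5.2b and featureCounts of Subread 1.5.2 on rn6, per the submitters' processing notes. Annotation release, strand use and multi-mapping: not given in the sources used here. The authors' deposited tables hold log2 fold changes with their p-values and gave all gene names; their 16 normalized columns were not used. The counts were tested with edgeR 4.0.16 (quasi-likelihood test, TMM, filterByExpr, two-sided, Benjamini-Hochberg over all genes), without a replicate block, in fits of the 12 differentiating CG4, the 8 primary, the 7 control and proliferating CG4, and those last 15 libraries together. The fits were tested on simulated data. Alternatives were RLE scaling, no filter, DESeq2 1.42.0, the replicate block, library sizes from all genes of each file, fits of only the libraries compared, leaving out each library and leaving out differentiating primary libraries 1 and 2 or 3 and 4. Where proliferating CG4 libraries were fitted, the block left out control library 4, whose number no proliferating CG4 library has. All p-values rest on the spread between libraries alone, which the titles call biological replicates. Same-numbered differentiating CG4 libraries deviated together (correlations of 0.16 to 0.71 in all 12 pairs), as seen in the data and not stated by the labels. Genes with values are those called in a comparison with a group mean of at least 1 CPM, the largest changes first, and a panel of matrix genes; Itga11, Col24a1 and Itgbl1, below that level, were added after their values were seen. Members and lists were chosen with earlier results of these data known. Of the 66 genes, 9 overlap a named protein-coding gene in RefSeq, and 49 matched a promoter there.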

Additional observations from a re-analysis of the deposited data

Results flagged for a closer look

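Of 154 groups of 4 libraries checked for a library far from the others, 7 had one, where chance flags about 1 in 20 groups. Col5a2 had 0.302 CPM in the first Nkx2.2 library, above the other 3. Col9a3 had 1134 CPM in the third Zfp488 library, above the others. Sparc had 482 CPM in the third control library, below the others. Itgb8 had 46.2 CPM in the first differentiating primary library, below the others, and Itga10 had 0.0483 CPM in the third and 0 in the rest. In proliferating primary cells Itga6 had 153 CPM in the fourth library, above the others, and Col11a2 had 14.8 CPM in the second, below the others.

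Differentiation responses differed between cell types by the interaction test, given here as CG4 minus primary on the log2 scale. The larger positive differences were 9.01 for Col6a1, 7.68 for Itgb4, 7.62 for Col7a1, 7.47 for Col1a1, 7.45 for Itga3, 6.41 for Itga7 and 6.14 for Col3a1. Sparc differed by 5.79, Itga5 by 5.54, Tnc by 5.02, Fn1 by 4.67, Lamb2 by 3.38, Col4a2 by 2.30 and Col4a1 by 2.01. Negative differences were -3.18 for Col9a3, -3.09 for Itgb8 and -1.66 for Lamc1. Vector, read length and sequencing run cannot be told apart from the CG4 response.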

How the results depend on the processing

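No fold change called for one of the 66 genes changed sign under an alternative. Other values did turn. With the block Nkx2.2 calls over all genes were 1872 higher and 2004 lower (904 and 663 without it). The median of the 6 glycoproteins in CG4 differentiation was 0.01 with the block (-0.26 without it). That block fit also left out control library 4, so the block and the missing library cannot be told apart. Over all genes, RLE factors gave 4181 higher and 4048 lower for CG4 differentiation (4064 and 4149 with TMM), and DESeq2 4343 and 4172. For the interaction they gave 4675 and 4482, and 4745 and 4606 (4467 and 4679 with TMM). Among the 66 genes the balance of Zfp488 against Nkx2.2 turned or evened out without some single libraries, as given above. With the replicate block, member calls numbered 26 for Zfp488 against control (13 without it) and 35 for Nkx2.2 against control (22 without it), and calls over all genes 3576 (1339 without it), 3876 (1567) and 6276 for Zfp488 against Nkx2.2 (3741). DESeq2 called 2144 genes for Zfp488 against control. Leaving out 1 library at a time, member calls ranged over 8 to 14 for Zfp488, 17 to 25 for Nkx2.2, 30 to 41 for Zfp488 against Nkx2.2, 48 to 50 for primary differentiation, 37 to 44 for CG4 differentiation and 43 to 50 for the interaction. Over all genes the ranges were 458 to 1604, 924 to 2302, 2585 to 4636, 10186 to 10448, 7360 to 8424 and 8789 to 9545. In primary cells (correlations of -0.04 to 0.10) and between CG4 states (-0.13 to 0.04) numbers did not pair libraries. The block gave 50, 37 and 43 member calls for primary cells, CG4 differentiation and the interaction. Among them were 49 of 49, 35 of 42 and 42 of 46 first calls. For CG4 differentiation and the interaction the block fits were also without control library 4. Counts limit genes under about 1 CPM, such as Itga11 and Thbs4.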
